A study of Rattus norvegicus with 12 samples.

Results

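The genes of respiratory complex I were followed in the hearts of 12 rats. Rows of the deposited count table were chosen by gene name, as every name starting with Ndufa, Ndufb, Ndufc, Ndufs, Ndufv or Mt-nd. This includes the Ndufaf assembly factors. The gene family was picked with earlier results of these data known. The rule found 55 of the 30560 listed genes, with 52 distinct symbols. They fell into 7 nuclear core subunits, 7 mitochondrially encoded core subunits, 29 accessory subunit entries and 7 assembly factors. Another 2 genes carry a Nduf name without belonging to complex I (Ndufa4 and Ndufa4l2). The remaining 3 entries were set apart as copies or pseudogenes by name alone (Ndufa10l1, listed under 2 identifiers, and Ndufv3-ps1). Of the 55, 54 had at least 10 counts in total and were tested, and the other, a second identifier for Ndufb2 (ENSRNOG00000026616), had 0 counts. Ndufa10, Ndufb1, Ndufb9 and Ndufaf8 were not analysed here. All 12 were male Wistar rats operated on at 7 weeks of age and then dosed over 8 weeks. The 4 Sham rats had the chest opened and received vehicle (carboxymethylcellulose), the 4 MI rats had a permanent ligation of the left anterior descending coronary artery, which causes a myocardial infarction, and received the same vehicle, and the 4 MI + UA rats had the ligation and received urolithin A (UA), a gut-bacterial metabolite of plant ellagitannins that is used to induce mitophagy. RNA came from formalin-fixed, paraffin-embedded sections of 20 µm cut from the middle block of the ventricle. Each library came from its own rat.

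Complex I (NADH:ubiquinone oxidoreductase) is the entry point of the respiratory chain. Its matrix arm takes electrons from NADH through a flavin and a row of iron-sulfur clusters to ubiquinone, and its membrane arm pumps protons. The core subunits, conserved from bacteria, do the chemistry and are encoded partly in the nucleus and partly in mitochondrial DNA. Accessory subunits, all nuclear, surround and stabilise the core, while assembly factors help to build the complex and are absent from the finished enzyme. Heart muscle, which works continuously on oxidative metabolism, is among the tissues richest in complex I.

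Nuclear genes of the respiratory chain are known to share promoter elements, and some of those of the genes described below are shown first. RefSeq promoter windows of the GRCr8 assembly, from 250 bases before to 50 bases after the annotated start, were matched by symbol to 32 of the 34 nuclear subunit symbols and to 6 of the 7 assembly factors. Letters of 4 regulators known for nuclear genes of the respiratory chain were searched on both strands. The letters were GCGCNTGCG for NRF1, CCGGAAG for GABPA, AAGGTCA for the estrogen-related receptors and AANATGGC for YY1, where N is any base. The following examples lie wholly before the start site and carry the searched letters, or their reverse complement, in capitals.
Ndufs1, GABPA letters, chr9:72073786-72073816, minus strand: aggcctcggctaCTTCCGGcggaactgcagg
Ndufs1, YY1 letters, chr9:72073615-72073646, minus strand: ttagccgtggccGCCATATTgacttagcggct
Ndufs8, YY1 letters, chr1:210573870-210573901, minus strand: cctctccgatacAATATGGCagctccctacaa
Ndufa6, GABPA letters, chr7:115750489-115750519, minus strand: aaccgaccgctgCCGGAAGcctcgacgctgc
Ndufa11, NRF1 letters, chr9:1637505-1637537, plus strand: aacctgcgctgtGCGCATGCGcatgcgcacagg
Ndufa12, NRF1 letters, chr7:30658192-30658224, plus strand: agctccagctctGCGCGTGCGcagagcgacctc
Ndufb2, estrogen-related receptor letters, chr4:69334102-69334132, plus strand: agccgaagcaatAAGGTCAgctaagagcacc
Ndufs5, NRF1 letters, chr5:141264510-141264542, minus strand: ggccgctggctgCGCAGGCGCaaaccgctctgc
Ndufaf1, GABPA letters, chr3:127104026-127104056, minus strand: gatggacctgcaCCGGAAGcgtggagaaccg
Ndufaf4, NRF1 letters, chr5:43401625-43401657, plus strand: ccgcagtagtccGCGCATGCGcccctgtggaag
In Ndufa11 the NRF1 letters occurred 4 times in overlapping positions.

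At least one of the 4 sets of letters was found in 24 of the 32 nuclear subunit promoters (75%), in 32% of the 12733 promoters of tested genes and in 22.8% of the 33469 promoters of the whole table. The YY1 letters were found in 15 subunit promoters (46.9%), against 8.73% of the promoters of tested genes. In 10 of those 15 they lay after the start site, and in 5 (15.6%) before it, against 5.02% of the promoters of tested genes with YY1 letters before the start. The NRF1 letters were in 25% of subunit promoters against 11.2% of promoters of tested genes, the GABPA letters in 21.9% against 14.9%, and the estrogen-related receptor letters in 12.5% against 3.38%. Before the start site alone, the shares were 21.9% against 10.4% for NRF1 and 21.9% against 13.2% for GABPA. For the estrogen-related receptors they were 6.25%, or 2 promoters, against 3.04%. Of the 6 assembly factor promoters, 4 held at least one set, including NRF1 letters in 2. The median GC content was 56.83% in subunit promoters and 60.0% in those of tested genes. These matches describe letters only, and no factor's binding was measured.

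Libraries held between 6228706 and 19031695 reads assigned to genes. Transcripts of mitochondrial DNA, from 13 genes, made up 50.2 to 58.6% of those. Assignment to a gene succeeded for 46.9 to 48.3% of the reads in Sham, for 43.3 to 44.8% in MI and for 42.9 to 47.2% in MI + UA. Values are given as CPM, read counts relative to TMM-scaled library size, in the rat order 12, 17, 32 and 38 for Sham, 36, 57, 61 and 89 for MI, and 29, 58, 64 and 66 for MI + UA. CPM is not scaled by transcript length, so it was compared between rats and not between genes. A gene was called changed at a Benjamini-Hochberg adjusted p under 0.05 in edgeR's quasi-likelihood test over the 18182 genes tested. Rat 66 is MI + UA by its sample label but stands among vehicle-treated MI rats in a supplementary list, and was kept as MI + UA. The cardiomyocyte markers were abundant in every library, with a summed level of 40360 to 64617 CPM over 12 genes, as the labelled tissue implies.

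Infarcted hearts had lower levels of most nuclear subunits of complex I. In MI compared with Sham, which asks what infarction does to these transcripts, 27 of the 54 tested members fell and 0 rose, where 5.53% of all tested genes fell and 5.82% rose. At an unadjusted p under 0.05, 0 members were higher. DESeq2 called 30 lower, the same 27 with Ndufa13, Ndufb3 and Ndufc1, and 0 higher. In 29 members every MI rat lay below every Sham rat, which held for 7.56% of all genes. The median log2 fold change was -0.54 for the nuclear core, -0.44 for the accessory subunits, -0.16 for the assembly factors, -0.14 for the mitochondrially encoded core and 0.03 for all genes tested. The called genes numbered 5 of 7 in the nuclear core, 19 of 28 accessory entries, 1 of 7 assembly factors and 0 of 7 mitochondrially encoded genes. Whether the classes differ from each other was not tested. In bulk tissue, fewer cardiomyocytes and less of these transcripts per cardiomyocyte cannot be told apart.

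**Figure D1:**
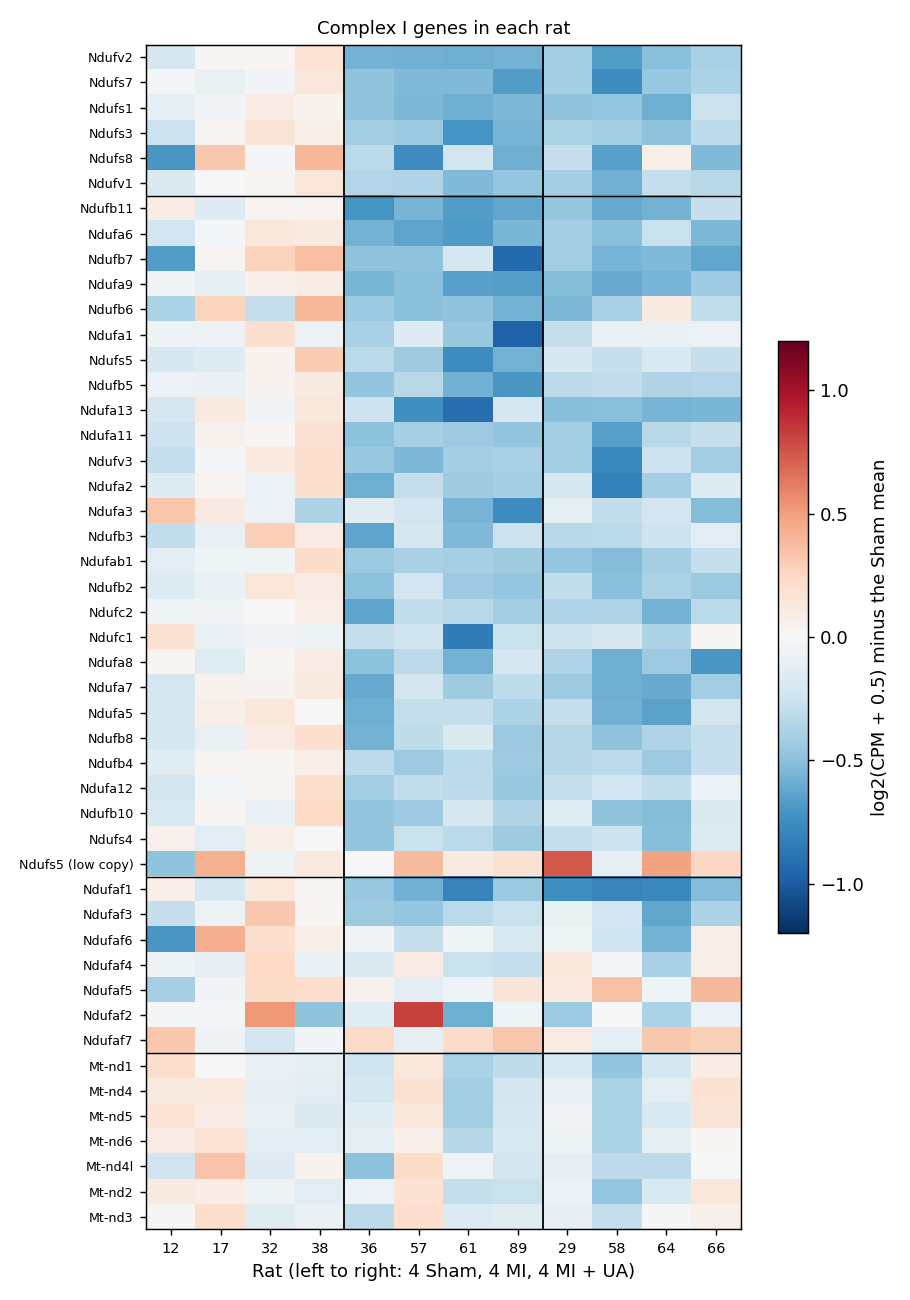
Level of each complex I gene with at least 100 counts in each rat, as log2(CPM + 0.5) minus the Sham mean of that gene, with rows grouped from top to bottom as nuclear core, accessory, assembly and mitochondrially encoded genes, and columns as 4 Sham, 4 MI and 4 MI + UA rats. Blue covers nearly the whole nuclear subunit block in the 8 infarcted hearts, while the assembly and Mt-nd blocks are mixed.

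**Figure D2:**
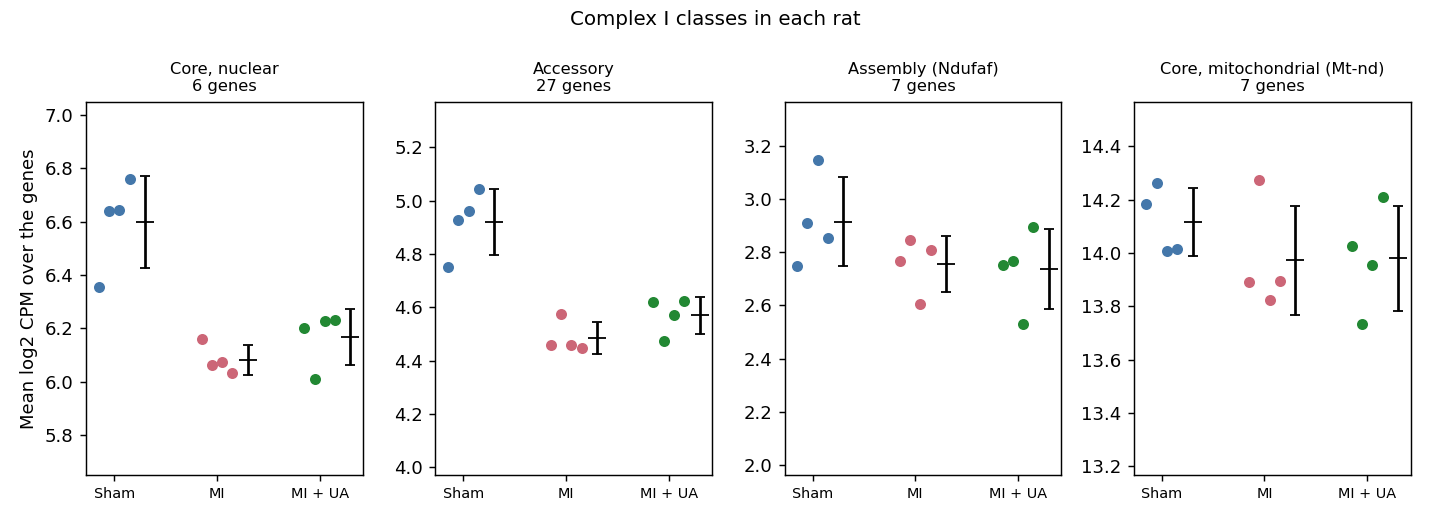
Mean log2 CPM over the genes of each class, 1 point per rat, with the group mean and SD (n = 4) beside the points; nuclear core and accessory genes with fewer than 100 counts are left out, and the vertical axes span the same range but start at different levels. All 4 Sham rats lie above all 8 infarcted rats for the 6 core and 27 accessory genes, and the groups overlap for the assembly and Mt-nd genes.

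The nuclear core was lower in every infarcted heart for 5 of its 7 genes. Mean log2 CPM over the 6 core genes with at least 100 counts was 6.36, 6.64, 6.64 and 6.76 in the Sham rats, 6.16, 6.06, 6.07 and 6.03 in the MI rats and 6.20, 6.01, 6.23 and 6.23 in the MI + UA rats. Ndufs1 (ENSRNOG00000011849), the large subunit that holds several of the iron-sulfur clusters, had 344, 361, 394 and 382 CPM in the Sham rats, 264, 254, 247 and 254 CPM in the MI rats and 264, 269, 246 and 309.8 CPM in the MI + UA rats. The lowest Sham rat was above the highest of the 8 infarcted rats. The log2 fold change in MI compared with Sham was -0.54 (SE 0.08, adjusted p = 0.000155), so that the level fell by 31.2%.

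Ndufv1 and Ndufv2 form the tip of the matrix arm where NADH is oxidised. Ndufv1 (ENSRNOG00000018117), which binds NADH and the flavin, had 124, 139, 143 and 154 CPM in the Sham rats, 109.6, 109, 96.5 and 101 CPM in the MI rats and 105, 93.5, 114 and 111 CPM in the MI + UA rats. Ndufv2 (ENSRNOG00000042503), which holds a cluster beside the flavin, had 87.1, 101, 102 and 112 CPM in the Sham rats, 67.3, 67, 66.5 and 67.5 CPM in the MI rats and 75.2, 62.8, 70.5 and 76.4 CPM in the MI + UA rats. Both fell without overlap between Sham and MI, by log2 fold changes of -0.43 (SE 0.09, adjusted p = 0.00235) and -0.59 (SE 0.09, adjusted p = 0.000168). The MI rats of Ndufv2 lay between 66.5 and 67.5 CPM, whereas the Sham rats spread from 87.1 to 112 CPM.

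Ndufs3, Ndufs7 and Ndufs8 sit further along the arm, where electrons reach ubiquinone. Ndufs7 (ENSRNOG00000024568), which carries the last cluster before ubiquinone, had 107, 102, 106 and 119 CPM in the Sham rats, 77.1, 74.6, 74.9 and 67.8 CPM in the MI rats and 81.6, 64.3, 78.9 and 83 CPM in the MI + UA rats. Ndufs3 (ENSRNOG00000009155), a structural core subunit without a cluster, had 61.6, 75.2, 82 and 77.5 CPM in the Sham rats, 55, 53.8, 45 and 50.0 CPM in the MI rats and 56.5, 55.4, 52.5 and 59.3 CPM in the MI + UA rats. Neither gene's MI rats overlapped its Sham rats, and the log2 fold changes were -0.56 (SE 0.09, adjusted p = 0.000323) and -0.54 (SE 0.10, adjusted p = 0.000767). Ndufs8 (ENSRNOG00000017446), which holds a pair of clusters, had 12.2, 25.1, 19.7 and 26.5 CPM in the Sham rats, 15.9, 11.8, 17.1 and 13.2 CPM in the MI rats and 16.4, 12.6, 21.1 and 13.7 CPM in the MI + UA rats. Sham rat 12 lay within the MI range, and the log2 fold change of -0.51 (SE 0.20, adjusted p = 0.105) did not pass the threshold. It passed without Sham rat 12, at -0.71, and with no filter on low counts, at -0.51.

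**Figure D3:**
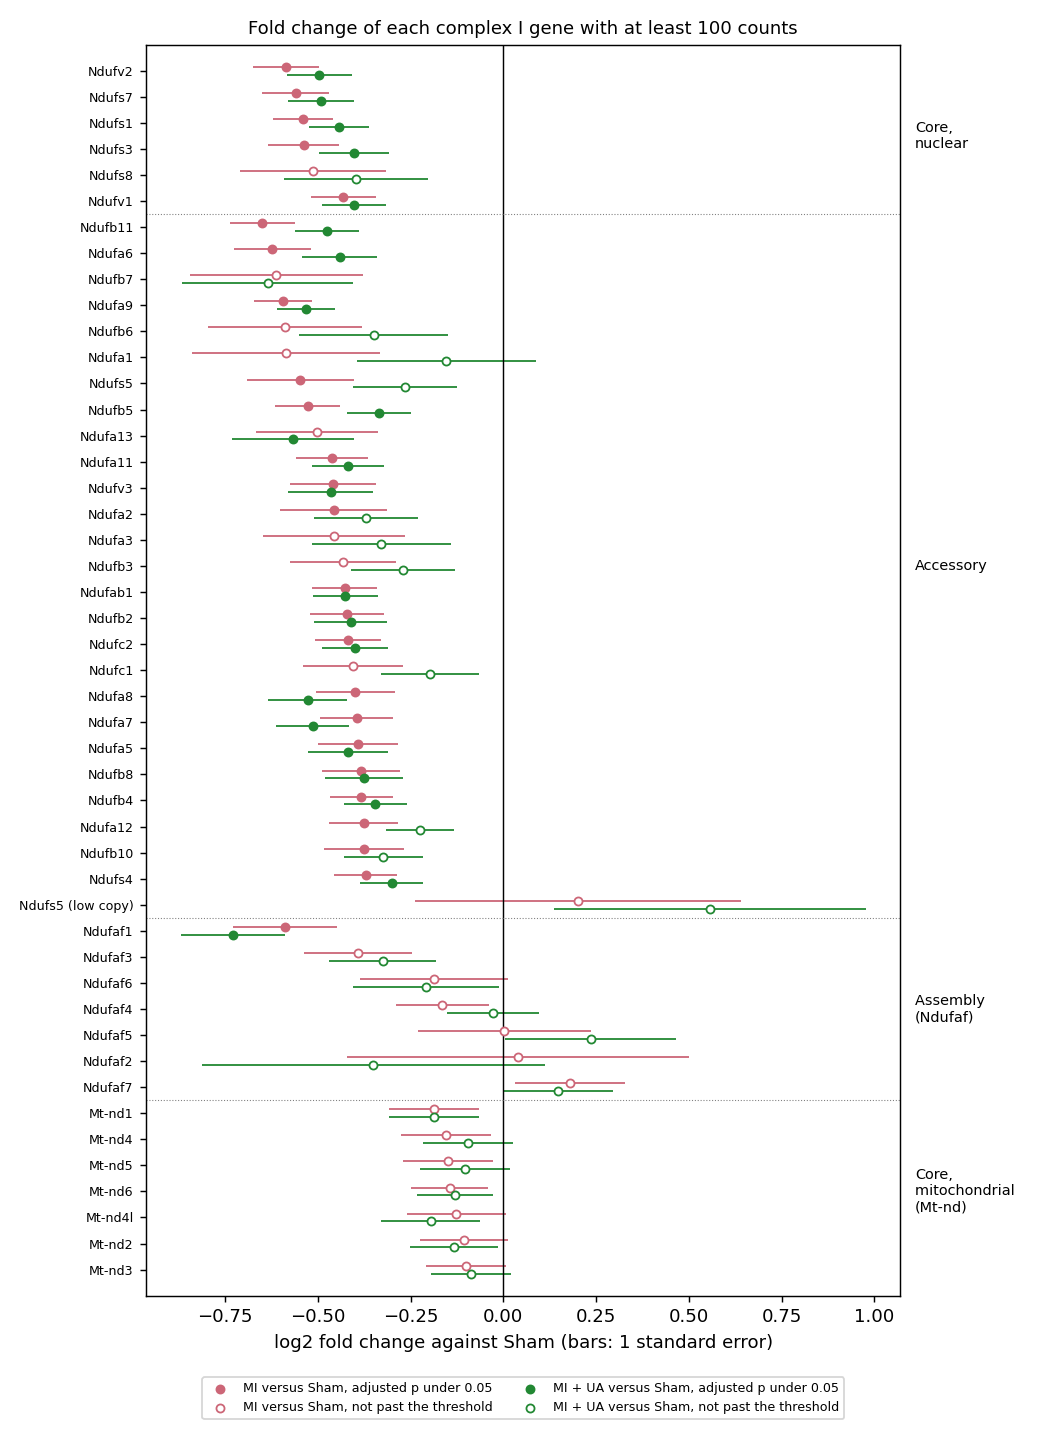
Log2 fold change against Sham of each complex I gene with at least 100 counts, for MI (red) and MI + UA (green), with bars of 1 standard error and filled points where the adjusted p was under 0.05; "low copy" marks the second Ndufs5 identifier. Nuclear subunits other than that entry lie between -0.65 and -0.37 in MI, and the 7 Mt-nd genes between -0.19 and -0.10.

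Most accessory subunits fell in MI. Of 28 tested entries, 27 had a lower estimate in MI, 19 passed the threshold downwards and 0 upwards, and 21 did not overlap between Sham and MI. Of all tested genes, 5.53% passed downwards and 5.82% upwards, and 7.56% lay lower in every MI rat than in any Sham rat. By position in the enzyme, with core and accessory genes together, 13 of 16 matrix arm genes fell (median log2 fold change -0.53), 6 of 9 genes of the distal membrane arm (-0.43) and 4 of 9 of the proximal membrane arm (-0.46). Among all 33 nuclear subunit entries with at least 100 counts, the quartiles of the log2 fold changes were -0.55 and -0.40. Their median was -0.46, and 32 of the 33 estimates were within 2 standard errors of it, Ndufb11 being the other. Calls followed depth, with 22 of 24 subunits with 2000 or more counts called, 2 of 4 with 1000 to 2000 and 0 of 5 with 100 to 1000, although the median log2 fold change in the last set was -0.59 (median SE 0.23).

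The accessory gene with the lowest adjusted p was Ndufa9 (ENSRNOG00000061684), which binds NADPH near the ubiquinone site. It had 153, 145, 164 and 168 CPM in the Sham rats, 107.8, 111, 100.2 and 99.6 CPM in the MI rats and 109.8, 103, 107 and 116 CPM in the MI + UA rats. All 8 infarcted rats lay below the Sham rats, with a log2 fold change of -0.59 (SE 0.08, adjusted p = 4.31e-05) in MI. Ndufb11 (ENSRNOG00000008329), a membrane arm subunit encoded on the X chromosome, had 119, 101, 115 and 114 CPM in the Sham rats, 67.8, 75.7, 70.2 and 72.8 CPM in the MI rats and 81.2, 73.3, 75.2 and 92.3 CPM in the MI + UA rats. Its log2 fold change of -0.65 (SE 0.09, adjusted p = 5.84e-05) was the lowest among nuclear subunits with at least 100 counts.

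Ndufa6 and Ndufab1 are partners on the matrix arm. Ndufa6 (ENSRNOG00000008569), a LYR-motif protein that docks the acyl carrier protein, had 26.8, 31.3, 34.8 and 34.1 CPM in the Sham rats, 21.1, 20.2, 19.5 and 21.4 CPM in the MI rats and 23.8, 22.2, 26.1 and 21.7 CPM in the MI + UA rats. Ndufab1 (ENSRNOG00000018129), the mitochondrial acyl carrier protein, which also serves fatty acid and iron-sulfur cluster synthesis, had 72.1, 76.2, 76.3 and 92.2 CPM in the Sham rats, 57.8, 59.9, 59.7 and 58.5 CPM in the MI rats and 57, 55, 59.1 and 64.5 CPM in the MI + UA rats. Both were lower in every MI rat than in any Sham rat, with log2 fold changes of -0.62 (SE 0.10, adjusted p = 0.000425) and -0.43 (SE 0.09, adjusted p = 0.00264).

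Ndufb4 and Ndufb5 belong to the distal membrane arm, and Ndufa11 and Ndufc2 to the proximal part. Ndufb5 (ENSRNOG00000011949) had 65.7, 65.4, 70.9 and 74.5 CPM in the Sham rats, 49.5, 54.6, 46.1 and 42.4 CPM in the MI rats and 55.5, 56, 53.7 and 54 CPM in the MI + UA rats. Ndufb4 (ENSRNOG00000002721) had 42.2, 47.9, 47.6 and 49.5 CPM in the Sham rats, 37.5, 34.3, 37.2 and 34.3 CPM in the MI rats and 36.7, 37.5, 34.5 and 38.4 CPM in the MI + UA rats. These fell by log2 fold changes of -0.53 (SE 0.09, adjusted p = 0.00044) and -0.38 (SE 0.08, adjusted p = 0.00468), without overlap between Sham and MI. RefSeq lists 7 pseudogenes of Ndufb4, and how many of its reads could also come from such copies was not tested. Ndufa11 (ENSRNOG00000048320) had 66.5, 82.1, 80.3 and 89.4 CPM in the Sham rats, 56.1, 60.1, 58.4 and 56.7 CPM in the MI rats and 59.6, 50.3, 62.5 and 65 CPM in the MI + UA rats. Ndufc2 (ENSRNOG00000012383) had 68.4, 69.3, 70.7 and 75 CPM in the Sham rats, 45.6, 57.7, 56.3 and 53.1 CPM in the MI rats and 55, 55.1, 47.6 and 56.4 CPM in the MI + UA rats. The MI rats were again below all Sham rats for both genes, with log2 fold changes of -0.46 (SE 0.10, adjusted p = 0.00314) and -0.42 (SE 0.09, adjusted p = 0.0036).

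Another 11 accessory genes passed the threshold downwards in MI. They were Ndufs4, Ndufa12, Ndufb10, Ndufa5, Ndufa7, Ndufb8, Ndufv3, Ndufa8, Ndufb2, Ndufa2 and the main Ndufs5 entry (ENSRNOG00000026646), with log2 fold changes from -0.55 for Ndufs5 to -0.37 for Ndufs4. Ndufs4 and Ndufa12, late additions to the matrix arm, had log2 fold changes of -0.37 (SE 0.08, adjusted p = 0.00588) and -0.38 (SE 0.09, adjusted p = 0.00959). Without Sham rat 38, 8 of the 27 called members lost the threshold, namely Ndufa2, Ndufa5, Ndufa8, Ndufa12, Ndufb8, Ndufb10, Ndufs5 and Ndufv3. Some of these also lost it without other rats. Of the 12 fits that left out one rat, Ndufa2 passed in 5, Ndufb10 in 7, Ndufa5 and Ndufb8 in 8, and Ndufa8 in 9. Ndufs5 passed in 10, and Ndufa12 and Ndufv3 in 11. The other 19 called members passed in each of the 12 fits. The entries not called were Ndufc1, Ndufb3, Ndufa13, Ndufa3, Ndufb6, Ndufb7 and Ndufa1, with log2 fold changes from -0.61 to -0.41, a second Ndufs5 identifier (ENSRNOG00000029339), and Ndufs6. The second Ndufs5 entry, with 116 counts, was the only nuclear subunit with a higher estimate in MI, 0.20 (SE 0.44, adjusted p = 0.843). Ndufs6 (ENSRNOG00000018068), which carries a zinc site, had 11 counts, with 0, 0, 2 and 3 counts in the Sham rats, 0, 0, 0 and 1 in the MI rats and 3, 0, 2 and 0 in the MI + UA rats, too few to show a difference.

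Of the 7 assembly factors, 1 fell in MI, Ndufaf1, and 0 rose, where 5.53% of all tested genes fell and 5.82% rose. Mean log2 CPM over the 7 was 2.75, 2.91, 3.14 and 2.85 in the Sham rats, 2.77, 2.84, 2.61 and 2.81 in the MI rats and 2.75, 2.77, 2.53 and 2.90 in the MI + UA rats, and the groups overlapped. The class median, -0.16, ranged from -0.25 (without MI rat 57) to -0.03 (without Sham rat 17) when single rats were left out. Ndufaf1 (ENSRNOG00000005006), which acts with Ecsit and Acad9 on an early membrane arm intermediate, had 12.7, 10.4, 13.3 and 12.4 CPM in the Sham rats, 8.70, 8.00, 6.75 and 8.80 CPM in the MI rats and 7.08, 6.81, 6.90 and 8.33 CPM in the MI + UA rats. No infarcted rat reached the lowest Sham rat, and the log2 fold change in MI was -0.59 (SE 0.14, adjusted p = 0.00824). It passed in all 12 fits that left out one rat.

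Ndufaf3 and Ndufaf4 act as a pair on the part of the matrix arm that meets ubiquinone. Ndufaf3 (ENSRNOG00000020068) had 11.5, 13.4, 17.7 and 14.2 CPM in the Sham rats, 10.2, 10.0, 11.1 and 11.6 CPM in the MI rats and 13.1, 11.9, 8.93 and 10.7 CPM in the MI + UA rats. Ndufaf4 (ENSRNOG00000007506) had 23.8, 23.2, 29.6 and 23.6 CPM in the Sham rats, 22, 26.8, 20.7 and 20.4 CPM in the MI rats and 27.4, 24.5, 18.9 and 26.2 CPM in the MI + UA rats. The groups overlapped for both, and the log2 fold changes were -0.39 (SE 0.15, adjusted p = 0.0949) and -0.16 (SE 0.13, adjusted p = 0.473). Without Sham rat 12, Ndufaf3 passed the threshold at -0.48. The Ndufaf4 estimate ranged from -0.25 to -0.08 when single rats were left out. RefSeq lists 5 pseudogenes of Ndufaf4.

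Ndufaf5 and Ndufaf7 modify arginine residues of core subunits, Ndufaf5 that of Ndufs7. Ndufaf7 (ENSRNOG00000005279), a methyltransferase, had 13.5, 10.2, 9.09 and 10.5 CPM in the Sham rats, 12.8, 9.88, 12.7 and 13.6 CPM in the MI rats and 11.5, 9.89, 13.5 and 13.2 CPM in the MI + UA rats. Ndufaf5 (ENSRNOG00000004784), a hydroxylase, had 2.01, 2.74, 3.37 and 3.34 CPM in the Sham rats, 2.92, 2.51, 2.70 and 3.18 CPM in the MI rats and 3.09, 3.72, 2.71 and 3.83 CPM in the MI + UA rats. Sham and MI overlapped for each, with log2 fold changes of 0.18 (SE 0.15, adjusted p = 0.518) and 0.00 (SE 0.23, adjusted p = 0.996), and the sign for Ndufaf5 depended on the scaling. The Ndufaf7 estimate ranged from 0.11 to 0.31 when single rats were left out.

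Ndufaf6 is needed early, for the intermediate that holds Mt-nd1, and Ndufaf2 binds late, where Ndufa12 is added. Ndufaf6 (ENSRNOG00000040040) had 5.39, 12.4, 10.4 and 9.54 CPM in the Sham rats, 8.77, 7.37, 8.72 and 7.90 CPM in the MI rats and 8.74, 7.58, 5.95 and 9.51 CPM in the MI + UA rats. Ndufaf2 (ENSRNOG00000055079), with 114 counts in all, had 1.00, 1.01, 1.68 and 0.596 CPM in the Sham rats, 0.877, 2.20, 0.519 and 0.978 CPM in the MI rats and 0.629, 1.03, 0.677 and 0.957 CPM in the MI + UA rats. Their log2 fold changes were -0.19 (SE 0.20, adjusted p = 0.64) and 0.04 (SE 0.46, adjusted p = 0.976), with overlapping groups. The Ndufaf6 estimate ranged from -0.39 to -0.03 when single rats were left out. Sham rat 12 was the lowest of all rats for Ndufaf6 and MI rat 57 the highest for Ndufaf2. The class median of -0.16 ranged from -0.25 to -0.03 when single rats were left out.

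None of the mitochondrially encoded core genes passed the threshold in MI. All 7 had a lower estimate, from -0.19 for Mt-nd1 to -0.10 for Mt-nd3, and 0 had an unadjusted p under 0.05 in edgeR or DESeq2. Mean log2 CPM over the 7 was 14.18, 14.26, 14.01 and 14.02 in the Sham rats, 13.89, 14.28, 13.82 and 13.90 in the MI rats and 14.03, 13.73, 13.95 and 14.21 in the MI + UA rats. MI rat 57 was the highest of all 12 rats, while the other 3 MI rats were below every Sham rat. The class median, -0.14, ranged from -0.26 (without MI rat 57) to -0.08 (without MI rat 61) when single rats were left out.

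Mt-nd1 lines the tunnel by which ubiquinone enters, and Mt-nd2, Mt-nd4 and Mt-nd5 are the antiporter-like proton channels. Mt-nd1 (ENSRNOG00000030644) had 66254, 57309, 53854 and 53158 CPM in the Sham rats, 48687, 63167, 44132 and 46629 CPM in the MI rats and 50603, 41233, 49742 and 60913 CPM in the MI + UA rats. Mt-nd2 (ENSRNOG00000031033) had 53942, 53325, 48005 and 45575 CPM in the Sham rats, 47593, 56378, 41028 and 41669 CPM in the MI rats and 47795, 36313, 44048 and 54914 CPM in the MI + UA rats. For both genes MI rat 57 lay within the Sham range or above it, and the log2 fold changes were -0.19 (SE 0.12, adjusted p = 0.382) and -0.11 (SE 0.12, adjusted p = 0.661). Mt-nd4 (ENSRNOG00000029707) had 59316, 59582, 51422 and 50349 CPM in the Sham rats, 47420.4, 62289, 41344 and 47119.7 CPM in the MI rats and 52028, 42326, 50352 and 61844 CPM in the MI + UA rats. Mt-nd5 (ENSRNOG00000029971) had 65312, 62652, 54710.0 and 51898 CPM in the Sham rats, 52952, 64316, 43801 and 50516 CPM in the MI rats and 56964, 44909.9, 51477 and 65161 CPM in the MI + UA rats. The groups overlapped again, with log2 fold changes of -0.16 (SE 0.12, adjusted p = 0.486) and -0.15 (SE 0.12, adjusted p = 0.507). When single rats were left out, the estimate ranged from -0.31 to -0.11 for Mt-nd1, -0.21 to -0.05 for Mt-nd2, -0.28 to -0.08 for Mt-nd4 and -0.26 to -0.07 for Mt-nd5, with the lowest value of each without MI rat 57.

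Mt-nd3, Mt-nd4l and Mt-nd6 are the small membrane subunits. Mt-nd3 (ENSRNOG00000033615) had 4406, 5076, 3957 and 4138 CPM in the Sham rats, 3517, 5015, 3902 and 3955 CPM in the MI rats and 4073, 3577, 4315 and 4577 CPM in the MI + UA rats. Mt-nd4l (ENSRNOG00000031053), whose reading frame overlaps that of Mt-nd4 on one transcript, had 3344, 4989.7, 3546 and 4063 CPM in the Sham rats, 2806, 4601, 3813 and 3383 CPM in the MI rats and 3631, 3162, 3170.4 and 3956 CPM in the MI + UA rats. Reads in the overlap cannot be given to one of the pair, and the Mt-nd4l share of Mt-nd reads varied from 1.30 to 2.11% between rats. Mt-nd6 (ENSRNOG00000029042), the only protein gene on the light strand of mitochondrial DNA, had 3777, 3960.1, 3207 and 3220.4 CPM in the Sham rats, 3263, 3667, 2777 and 3104 CPM in the MI rats and 3387, 2705, 3254 and 3588 CPM in the MI + UA rats. The strand setting of the read counting is not given in the sources used here, so reads from the opposite strand cannot be told apart from its own. The log2 fold changes in MI were -0.10 (SE 0.11, adjusted p = 0.638), -0.13 (SE 0.13, adjusted p = 0.634) and -0.14 (SE 0.10, adjusted p = 0.43). They too were lowest without MI rat 57, at -0.21, -0.26 and -0.22. Without Sham rat 17 the estimate for Mt-nd3 was -0.02 and that for Mt-nd4l -0.0005249, and without MI rat 61 Mt-nd6 was at -0.08.

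Among all 13 mitochondrially encoded genes, the complex I members took a larger part of the reads after infarction. The Mt-nd share of these reads was 39.0, 38.7, 38.3 and 37.3 in the Sham rats, 41.8, 42.1, 41.0 and 39.6 in the MI rats and 40.2, 39.7, 40.0 and 41.9 in the MI + UA rats, in percent. All MI and MI + UA rats were above all Sham rats. The Mt-nd share of all reads on genes did not separate the groups, at 20.1 to 22.8% in Sham, 20.6 to 24.2% in MI and 19.9 to 23.8% in MI + UA. The other 6 genes took 33.6 to 35.7% in Sham and 29.6 to 33.4% in MI. One of those 6, Mt-co1, the catalytic subunit of cytochrome c oxidase, was called, with a log2 fold change of -0.38 (SE 0.10, adjusted p = 0.0182), and the remaining 5 ranged from -0.35 to -0.21. No test was run on these shares.

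**Figure D4:**
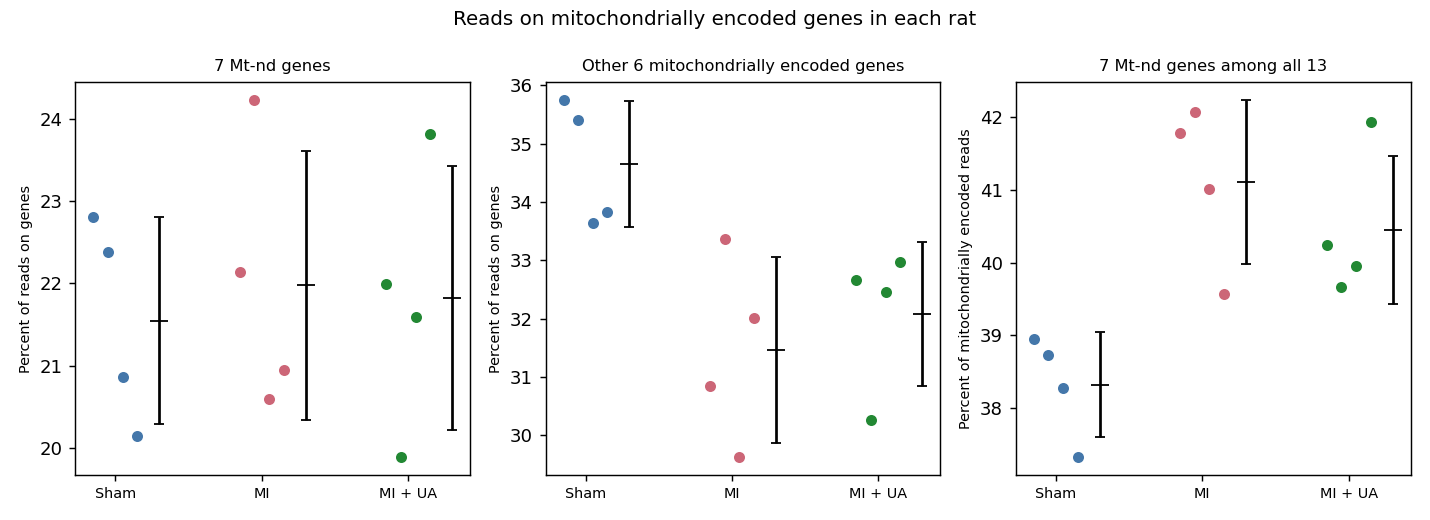
Percent of reads on genes that fell on the 7 Mt-nd genes (left) and on the other 6 mitochondrially encoded genes (middle), and the Mt-nd genes as percent of the reads on all 13 (right), 1 point per rat with the group mean and SD (n = 4); the axes do not start at 0. The right panel shows Sham at 37.3 to 39.0% and MI at 39.6 to 42.1%, without overlap.

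Members set apart from the subunit and assembly classes were mixed. Ndufa4 (ENSRNOG00000005512), now counted as a subunit of cytochrome c oxidase, had 158, 160.5, 160.3 and 176 CPM in the Sham rats, 119.8, 139, 117 and 118 CPM in the MI rats and 132, 120.1, 130.2 and 141 CPM in the MI + UA rats. The MI rats lay below all Sham rats, with a log2 fold change of -0.41 (SE 0.08, adjusted p = 0.00199). Its paralog Ndufa4l2 (ENSRNOG00000031851), known as a hypoxia-induced gene, had 4.39, 6.35, 4.04 and 4.89 CPM in the Sham rats, 4.24, 4.23, 3.74 and 4.89 CPM in the MI rats and 3.09, 4.50, 5.14 and 3.83 CPM in the MI + UA rats, and -0.20 (SE 0.21, adjusted p = 0.635) in MI with overlapping groups. Ndufa10l1, which resembles the accessory subunit Ndufa10, was listed under ENSRNOG00000016470 with 11120 counts and a log2 fold change of -0.42 (SE 0.09, adjusted p = 0.0031). Whether this entry serves as the Ndufa10 subunit was not tested, and it is not in the subunit counts. The second Ndufa10l1 identifier, with 155 counts, and Ndufv3-ps1, with 23 counts, were not called. Ndufv3-ps1 had 2, 0, 1 and 3 counts in the Sham rats, 1, 1, 0 and 2 in the MI rats and 7, 1, 0 and 5 in the MI + UA rats. In RefSeq, 20 of the 45 nuclear member symbols have at least one pseudogene, 46 in all, so reads of these genes may be split between copies.

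Genes that work beside complex I gave the following counts in MI, from lists chosen with earlier results of these data known. Of 11 other assembly factors 2 fell, Tmem70 (-0.55) and Ecsit (-0.46), the partner of Ndufaf1, while Acad9 had -0.26 (SE 0.17, adjusted p = 0.403). Of 13 genes of mitochondrial iron-sulfur cluster synthesis 4 fell, namely Glrx5 (-0.55), Hspa9 (-0.53), Isca1 (-0.38) and Nfs1 (-0.36), the cysteine desulfurase that supplies the sulfur. The list medians were -0.35 and -0.21. Of 9 other enzymes that feed ubiquinone 6 fell, from -0.67 for Prodh1 and -0.64 for Etfdh to -0.46 for Sdhc, and the 4 succinate dehydrogenase subunits were all among them. Nuclear subunits of complex III fell in 6 of 8 genes (median -0.48), of complex IV in 7 of 9 (-0.52) and of ATP synthase in 13 of 16 entries (-0.51). No member of these lists rose past the threshold. Among all tested genes, 5.53% fell and 5.82% rose.

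Cardiomyocyte markers fell in MI, as the nuclear subunits did, while fibroblast and macrophage markers rose. Of all tested genes, 5.53% fell and 5.82% rose. Of 12 cardiomyocyte markers, 11 fell in MI (median log2 fold change -0.45), and their summed level was 57172 to 64617 CPM in Sham, 40360 to 47162 in MI and 42270 to 54512 in MI + UA. Fibroblast markers rose in 7 of 9 genes (median 1.26), with a summed level of 1189 to 1495 CPM in Sham, 2316 to 4018 in MI and 2383 to 4127 in MI + UA. Macrophage markers rose in 9 of 10 (median 0.89), from 180.1 to 211 CPM in Sham to 336 to 487 CPM in MI and 285 to 515 CPM in MI + UA. Of 7 smooth muscle and pericyte markers 4 rose, of 8 endothelial markers 1 fell, and 0 of 3 adipocyte markers and 0 of 1 erythroid marker were called. The adipocyte markers Adipoq and Plin1 had 35 and 36 counts in total.

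The nuclear subunits were also set against the cardiomyocyte markers, a measure chosen after the data were seen. Mean log2 CPM of the 33 nuclear subunits minus that of the 12 markers was -5.91, -5.76, -5.83 and -5.83 in the Sham rats, -5.81, -5.79, -5.77 and -5.80 in the MI rats and -5.78, -5.74, -5.70 and -5.87 in the MI + UA rats. The 3 groups overlapped on this scale. Where 26 of the 33 subunits had lain lower in every MI rat than in any Sham rat, 1 did so relative to the markers, Ndufa9, against 0.242% of all tested genes. In MI + UA compared with Sham the numbers were 21 and 0, against 0.236% of all genes relative to the markers. The difference between the Mt-nd genes and the markers was 3.23, 3.26, 2.91 and 2.83 in the Sham rats, 3.32, 3.64, 3.31 and 3.36 in the MI rats and 3.34, 3.24, 3.38 and 3.42 in the MI + UA rats. Here every MI rat was above every Sham rat, while 1 of the 7 genes, Mt-nd2, was higher in MI without overlap by itself, and 40.0% of all tested genes were. For the 7 assembly factors the difference was -8.21, -8.09, -7.95 and -8.33 in the Sham rats, -7.81, -7.79, -7.91 and -7.73 in the MI rats and -7.94, -7.73, -8.04 and -7.89 in the MI + UA rats, so every MI rat was again above every Sham rat, while the MI + UA rats overlapped with both. On this scale Ndufaf4 and Ndufaf5 were higher in MI without overlap by themselves. In MI + UA compared with Sham, Ndufaf5 and Ndufaf7 were higher without overlap relative to the markers, as were 33.1% of all genes, and Ndufaf1 was lower. The part of cell composition in the fall of the subunits was not tested further.

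**Figure D5:**
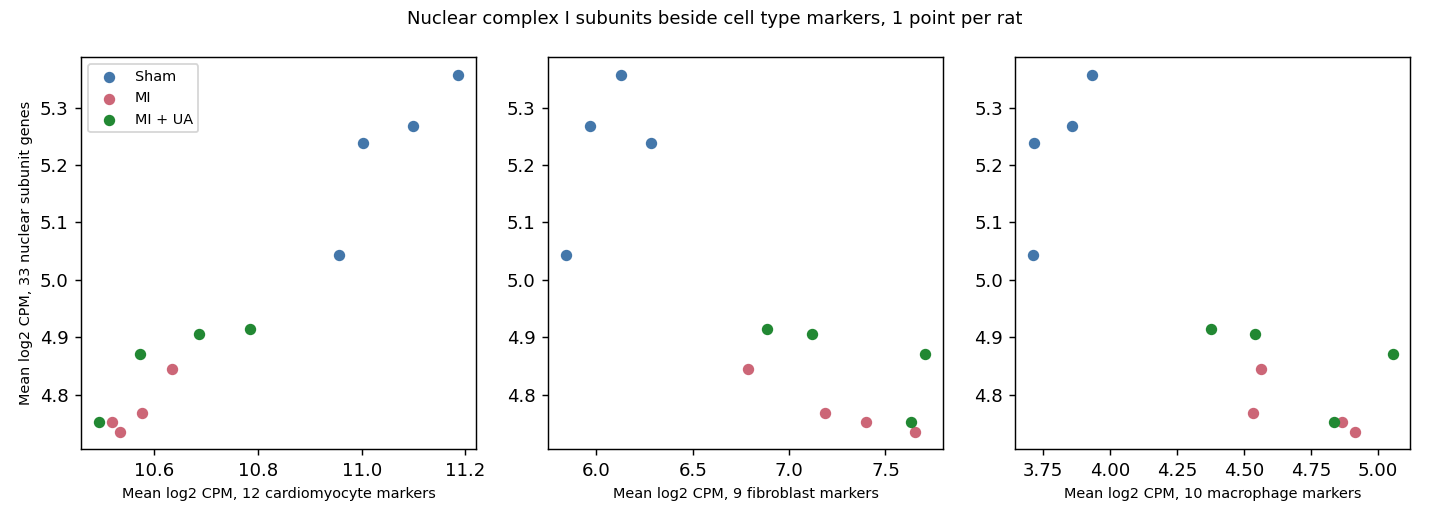
Mean log2 CPM of the 33 nuclear subunit genes with at least 100 counts against that of 12 cardiomyocyte (left), 9 fibroblast (middle) and 10 macrophage markers (right), 1 point per rat, coloured by group. Sham rats lie apart from infarcted rats on every axis, with cardiomyocyte markers higher and the other markers lower.

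In MI + UA compared with MI, which asks what urolithin A does in infarcted hearts, 0 of the 54 members passed the threshold with edgeR and 0 with DESeq2, and 0.0% of all tested genes did with edgeR. At an unadjusted p under 0.05 in edgeR, 1 member was higher and 0 lower, with 339 higher and 350 lower among all genes. Median log2 fold changes were 0.10 for the nuclear core, 0.07 for the accessory subunits, -0.02 for the assembly factors, 0.01 for the Mt-nd genes and 0.00 for all genes. When single rats were left out, these medians ranged from 0.05 to 0.14 for the nuclear core, 0.02 to 0.11 for the accessory subunits, -0.09 to 0.08 for the assembly factors and -0.05 to 0.12 for the Mt-nd genes, so the last pair changed sign. Estimates were higher with UA in 29 of 35 tested nuclear subunit entries, in 9276 of all 18182 genes and in 11 of the 12 cardiomyocyte markers (median 0.04). Relative to those markers, the median difference of the 33 subunits between MI + UA and MI was -0.01 on the log2 scale, and 1 of them, Ndufb11, was higher in MI + UA without overlap, against 0.506% of all genes. Mean log2 CPM over the 33 subunits with at least 100 counts was 5.04, 5.24, 5.27 and 5.36 in the Sham rats, 4.77, 4.85, 4.75 and 4.74 in the MI rats and 4.91, 4.75, 4.87 and 4.91 in the MI + UA rats, so MI rat 57 lay above MI + UA rat 58, and the groups overlapped. The level of Ndufs1 in MI + UA rat 66, 309.8 CPM, was the highest of the 8 infarcted rats.

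Ndufb5, the distal membrane arm gene, was the only member with an unadjusted p under 0.05 in MI + UA compared with MI, with a log2 fold change of 0.19 (SE 0.09), unadjusted p = 0.0389 in edgeR and overlapping groups, where 1.86% of all genes were higher at that level. Every MI + UA rat was above every MI rat for Ndufa6, by 0.18 (SE 0.10), and for the main Ndufs5 entry, by 0.28 (SE 0.14), against 1.18% of all genes. Neither had an unadjusted p under 0.05. For Ndufs1 the log2 fold change was 0.10 (SE 0.08), for Ndufb11 0.17 (SE 0.09), for Ndufaf1 -0.14 (SE 0.14) and for Mt-nd5 0.05 (SE 0.12). Across the alternative runs, Ndufs1 ranged from -0.03 to 0.14 and Mt-nd5 from -0.11 to 0.15, so both changed sign. Ndufb11 ranged from 0.02 to 0.22 and Ndufaf1 from -0.23 to -0.09.

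MI + UA hearts still had lower nuclear subunits than Sham hearts. In that comparison, which shares the Sham rats with the first and the MI + UA rats with the second, 24 of the 54 members fell and 0 rose, where 4.27% of all tested genes fell. In 24 members every MI + UA rat lay below every Sham rat, which held for 6.46% of all genes. The called genes were 5 of 7 in the nuclear core, 16 of 28 accessory entries, Ndufaf1 among the 7 assembly factors, Ndufa4 and the main Ndufa10l1 entry, and 0 of the 7 Mt-nd genes. Class medians were -0.40, -0.39, -0.21 and -0.13 for the nuclear core, accessory, assembly and Mt-nd genes. The Mt-nd median ranged from -0.20 (without MI + UA rat 66) to -0.04 (without MI + UA rat 58) and the assembly median from -0.37 (without Sham rat 12) to -0.06 (without Sham rat 17) when single rats were left out. Ndufaf1 had the lowest called estimate, -0.73 (SE 0.14, adjusted p = 0.00207). For Ndufs1 it was -0.44 (SE 0.08, adjusted p = 0.00128), for Ndufv2 -0.50 (SE 0.09, adjusted p = 0.00105), for Ndufa9 -0.53 (SE 0.08, adjusted p = 0.000178) and for Ndufb11 -0.48 (SE 0.09, adjusted p = 0.00134). Ndufa12, Ndufb10, Ndufa2 and the main Ndufs5 entry, called in MI, were not called here, with log2 fold changes of -0.23, -0.32, -0.37 and -0.26, and Ndufa13 was called at -0.57 (SE 0.17, adjusted p = 0.0337) after missing the threshold in MI. The Ndufa13 call held in 5 of the 12 fits that left out one rat, those of Ndufs4 and Ndufb8 in 7, that of Ndufa5 in 9 and those of Ndufa4, Ndufb5 and Ndufv3 in 11. These crossings of the threshold do not show a difference between MI and MI + UA, for which the direct comparison gave 0 calls.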

How the data were processed

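RNA-seq was performed on heart sections of 12 rats, 1 library each. Per the labels and the methods, libraries were strand-specific and depleted of ribosomal RNA, although the labels also name polyA RNA. The authors mapped read pairs with STAR (2.6.1c) to mRatBN7.2 and counted reads per Ensembl gene with htseq-count. The counts were deposited without normalization and used here without change. The strand setting and the handling of multi-mapped reads are not given in the sources used here. The 5 summary rows of htseq-count stayed out of library sizes, and 3.18 to 3.84% of reads were ambiguous between genes. Groups came from the sample labels, and replicates were separate rats. No batch is named in the labels. Another MI + UA library, dropped by the authors, was not used here. The sources differ on the dose and start of UA, so neither is given.

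Of 30560 listed genes, the 18182 with a summed count of 10 or more entered edgeR 4.0.16 in R 4.3.3, by the quasi-likelihood test after TMM, with the 3 groups in one fit, no covariates and Benjamini-Hochberg adjustment at 0.05. CPM used TMM library sizes, and log2 CPM a prior count of 1. DESeq2 1.42.0, other scalings and filters, the other placing of rat 66 and leaving out each rat were alternatives. Class summaries are medians and counts without a test. The fit was tested on simulated data. The members and the lists were chosen with earlier results of these data known. Values in every rat are given for core, assembly and Mt-nd genes, for the 8 accessory genes with the lowest adjusted p in MI, for accessory genes with an unadjusted p under 0.05 in MI + UA compared with MI, for Ndufa4 and Ndufa4l2, and for members with fewer than 100 counts. One member enters the counts and class summaries but is not reported here by itself. Promoter windows came from RefSeq (GRCr8), matched by symbol.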

Additional observations from a re-analysis of the deposited data

Results flagged for a closer look

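In 114 sets of 4 rats (each named gene or class mean in each group), the gap between the highest or lowest rat and its nearest neighbour was divided by the whole range, and 6 ratios were above Dixon's critical value for 4 samples. Chance gives about 1 in 20, or 5.7 of 114. Ndufa4 was high in Sham rat 38 (ratio 0.861), at 7.46 log2 CPM against 7.31 to 7.33 in the other Sham rats, and in MI rat 57 (0.876), at 7.12 against 6.88 to 6.91. Ndufaf4 was high in Sham rat 32 (0.895), at 4.89 against 4.54 to 4.58. Ndufc2 was low in MI + UA rat 64 (0.844), at 5.58 against 5.78 to 5.82. The mean over the Mt-nd genes was high in MI rat 57 (0.84), at 14.28 against 13.82 to 13.90. Ndufs6 was flagged in MI rat 89 (1.0), which had 1 count where the other MI rats had 0.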

How the results depend on the processing

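Between 19 (without Sham rat 38) and 33 (without Sham rat 12) members were called lower in MI when single rats were left out, and between 18 and 27 in MI + UA compared with Sham. In MI + UA compared with MI, 0 members were called in every alternative run. Rat 66 counted as MI gave 27 and 24 lower calls. The median of all genes moved by at most 0.0114 on the log2 scale with another scaling. In MI + UA compared with MI, leaving out single rats turned the sign of the assembly factor median (-0.09 to 0.08) and of the Mt-nd median (-0.05 to 0.12). The assembly factor median in MI + UA compared with Sham ranged from -0.3704 (without Sham rat 12) to -0.06206 (without Sham rat 17). Ndufaf5 in MI compared with Sham changed sign to -0.0002874 with DESeq2, -0.002577 with DESeq2 size factors, -0.005943 with TMM without mitochondrially encoded genes and -0.01225 with only the 2 groups compared, and ranged from -0.1407 to 0.09653 when single rats were left out. Ndufaf2 went to -0.0004228 with rat 66 counted as MI and ranged from -0.375 (without MI rat 57) to 0.3131. The causes were not tested. No paired analysis was possible because each rat number occurs in a single group. Depth limits Ndufs6, with 11 counts.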
